A study of Mus musculus with 6 samples.

Results

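Of the 35673 genes in the deposited count table of this mouse cornea RNA sequencing study, 36 encode proteins of the unfolded protein response and the heat shock response. They were taken by gene symbol from a fixed list and split by compartment into an endoplasmic reticulum arm of 21 genes and a cytosolic arm of 15 genes, which includes the mitochondrial chaperonins Hspd1 and Hspe1. All 36 were in the table and passed the filter on low counts. The mice were male C57BL/6J of 6 to 8 weeks, with 3 libraries titled Cationorm and 3 titled Control, each from corneal tissue. Cationorm is an eye drop of positively charged oil droplets in water, given in volumes of 5 µL for 14 days after a dry eye model had been set up. That model joined 0.1% benzalkonium chloride, an irritant preservative, to contact lens wear of 6 h per day. The design names Control as an arm of its own beside the preservative and lens arms, whereas all 6 libraries carry the tag of the lens model and an identical treatment tag. What the Control mice received is therefore uncertain, and if they were outside the model, an effect of the drops and one of the model cannot be told apart. Nothing in the labels says whether a library came from 1 animal or a pool.

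The unfolded protein response senses misfolded protein in the endoplasmic reticulum through the sensors IRE1, PERK and ATF6. They act through the transcription factors XBP1, ATF4 and cleaved ATF6, which raise the transcription of chaperones, disulfide isomerases and degradation factors of that compartment. The heat shock response is its cytosolic counterpart, in which HSF1 drives the genes of HSP70, HSP40, HSP90 and small heat shock proteins when proteins unfold in the cytosol. In the cornea these chaperones serve an epithelium that faces light, drying and wear, and small heat shock proteins of the α-crystallin family are also major proteins of the lens.

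Levels are given as CPM, the counts scaled to library size with TMM factors. Library totals ran from 32486043 to 39193311 counts, and the lowest count of any member in any library was 134. The 10 corneal epithelial markers (Krt12, Krt5, Aldh3a1 and others) held 6.05 to 6.35% of counts in Cationorm and 5.92 to 6.35% in Control. Transcripts of other tissues were also present. The retina list held 0.208 to 0.687% of counts in Cationorm and 0.559 to 0.836% in Control, and the lens list held 0.195 to 0.793% in Cationorm and 0.0108 to 0.394% in Control. The iris pigment list held 0.120 to 0.146% in Cationorm and 0.0433 to 0.108% in Control, with all 10 genes above 0 on the log2 fold change scale. The skeletal muscle list held 0.0140, 0.300 and 0.126% in Cationorm 1 to 3 and 0.104, 0.0193 and 0.185% in Control 1 to 3.

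No member of either arm passed the test. With the quasi-likelihood test of edgeR and Benjamini-Hochberg adjustment over all genes, 0 of 36 members were called at an adjusted p under 0.05, where 0 of 18804 genes (0% called) were called in all. The smallest adjusted p of a member was 0.550. At an unadjusted p under 0.05 in the same edgeR fit there were 2 members, Hsp90ab1 with a higher and Dnaja1 with a lower level in Cationorm, against a background of 5.16% of all genes tested higher, 3.57% lower and 8.73% in either direction. DESeq2, run on the same genes, called 55 of them and 0 of the 36 members. The groups did not overlap in 3 members, Calr and Hsp90ab1 with higher and Atf4 with lower levels in Cationorm. That is 8.33% of the members, below the background of 14.8% of all genes (8.73% higher and 6.09% lower in Cationorm). The iris pigment list was also higher in every Cationorm library, and its part in these values was not tested. In bulk tissue a smaller share of a cell type and less RNA per cell cannot be told apart.

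The data bounded most changes closely. In the endoplasmic reticulum arm the 95% interval of the fold change lay within 2-fold in both directions for 20 of 21 genes, all except Asns, and within 1.5-fold for 18. In the cytosolic arm it lay within 2-fold for 14 of 15 genes, all except Cryab, and within 1.5-fold for 12. Over the 6 libraries the SD relative to the mean was smaller than the median of all genes tested (13.8%) in 26 of the 36 members. The genes behind that median were not matched to the members in abundance.

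**Figure D1:**
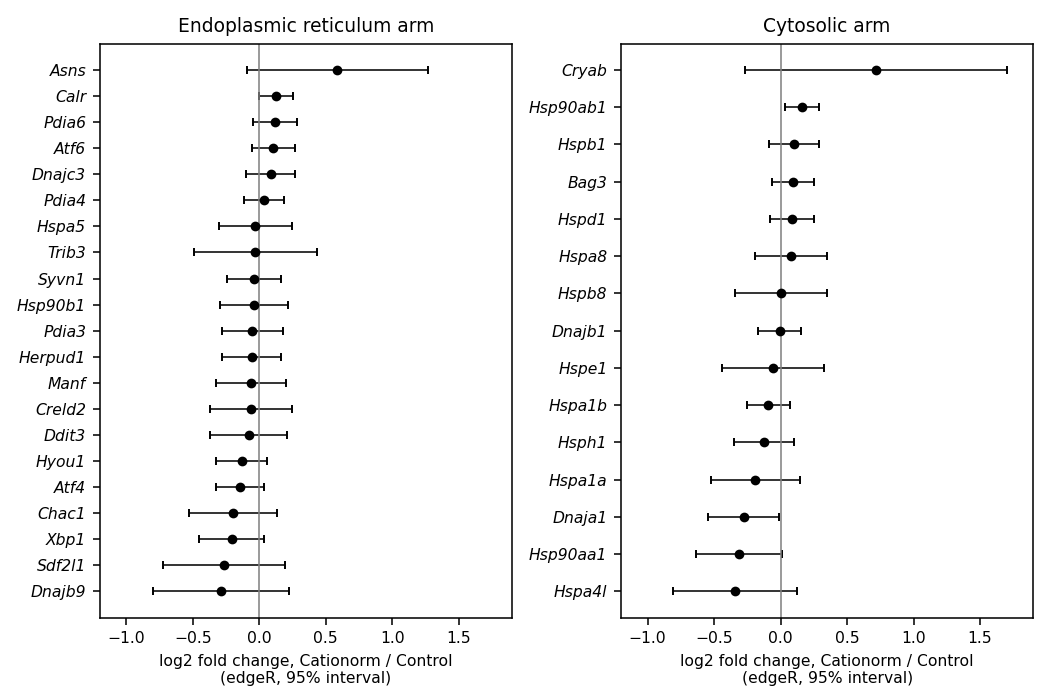
Log2 fold change of Cationorm over Control (horizontal axis, log2 scale) for each member of the endoplasmic reticulum arm (left) and the cytosolic arm (right), with points for the edgeR estimate and bars for its 95% interval. Most estimates lie near 0, and the widest intervals are those of Asns (-0.09 to 1.27) and Cryab (-0.27 to 1.70).

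In the endoplasmic reticulum arm, 15 of 21 genes had a log2 fold change below 0 and 6 above it, with a median of -0.05, against 0.01 over all genes tested. That balance rested on a single library. Without Control 2, 11 of the 21 were above 0 and 10 below, with a median of 0.039. In the cytosolic arm 7 of 15 genes were above 0 and 8 below, with a median of -0.01.

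The transcription factors of the endoplasmic reticulum arm differed little between groups. Atf4, the main effector of the PERK branch and of amino acid stress, had 182, 182 and 161 CPM in Cationorm 1 to 3, against 206, 187 and 186 CPM in Control 1 to 3. Every Cationorm library lay below every Control library, by a small margin, with a log2 fold change of -0.14 ± 0.08 (SE, edgeR adjusted p = 0.554). ATF4 is controlled mainly through translation of its mRNA, which these counts do not measure.

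Xbp1, whose mRNA is spliced by IRE1, had 122, 117 and 108 CPM in Cationorm 1 to 3, against 125, 154 and 121 CPM in Control 1 to 3. The groups overlapped by a narrow margin, Control 2 stood highest, and the log2 fold change was -0.21 ± 0.10 (SE, edgeR adjusted p = 0.550). It was -0.11 without Control 2. Counts per gene do not separate spliced from unspliced Xbp1. Atf6, the membrane-bound factor cleaved in the Golgi, had 57.3, 53.2 and 50.9 CPM in Cationorm 1 to 3, against 50.3, 48.4 and 51.3 CPM in Control 1 to 3. Its groups overlapped, with a log2 fold change of 0.11 ± 0.07. Ddit3, which encodes CHOP, the factor linked to death under prolonged stress, had 10.4, 9.79 and 9.06 CPM in Cationorm 1 to 3, against 10.4, 9.37 and 11.1 CPM in Control 1 to 3. These values overlapped almost completely (log2 fold change -0.08 ± 0.12). In the GENCODE M21 annotation exons of Ddit3 overlap those of Mars on the opposite strand. Without a stated strand setting, reads in the shared stretch cannot be assigned to either gene.

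The main chaperones of the endoplasmic reticulum were also at similar levels in both groups. Hspa5, which encodes BiP, the HSP70 of that compartment and the usual readout of its stress, had 394, 344 and 359 CPM in Cationorm 1 to 3, against 348, 441 and 330.2 CPM in Control 1 to 3. The Control values spanned the Cationorm values, with a log2 fold change of -0.03 (95% interval -0.31 to 0.25, edgeR adjusted p = 0.939). Hsp90b1, which encodes GRP94, the HSP90 of the compartment, had 252, 236 and 249 CPM in Cationorm 1 to 3, against 238, 297 and 222 CPM in Control 1 to 3. It showed the same order among the Control libraries as Hspa5, with Control 2 highest and Control 3 lowest (log2 fold change -0.04 ± 0.11).

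Calr, which encodes the lectin chaperone calreticulin, was the most abundant gene of this arm by CPM. It had 577, 608 and 598 CPM in Cationorm 1 to 3, against 536, 559 and 539 CPM in Control 1 to 3. All Cationorm libraries were above all Control libraries, and the log2 fold change was 0.13 ± 0.05 (95% interval -0.0033 to 0.25, edgeR adjusted p = 0.550). Pdia3, the disulfide isomerase that works with calreticulin, had 470.2, 461 and 442 CPM in Cationorm 1 to 3, against 439, 546 and 438 CPM in Control 1 to 3. Its groups overlapped, with Control 2 highest (log2 fold change -0.05 ± 0.10).

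The other chaperones, co-chaperones and isomerases had log2 fold changes from -0.29 for Dnajb9 to 0.12 for Pdia6. Hyou1, a nucleotide exchange factor of BiP, averaged 103 ± 2.04 CPM in Cationorm and 113 ± 11.1 CPM in Control (SD, n = 3 each). Of the disulfide isomerases, Pdia4 averaged 153 ± 7.16 CPM in Cationorm and 149 ± 5.99 CPM in Control, and Pdia6 averaged 155 ± 1.73 CPM in Cationorm and 143 ± 11.0 CPM in Control. The BiP co-chaperone Dnajc3 averaged 116 ± 10.3 CPM in Cationorm and 109 ± 3.70 CPM in Control. The secreted stress proteins Manf and Creld2 had log2 fold changes of -0.06 each. Herpud1 and Syvn1, a scaffold and the ubiquitin ligase of endoplasmic reticulum degradation, had -0.06 and -0.04. None of these passed the edgeR test (adjusted p from 0.580 to 0.884).

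**Figure D2:**
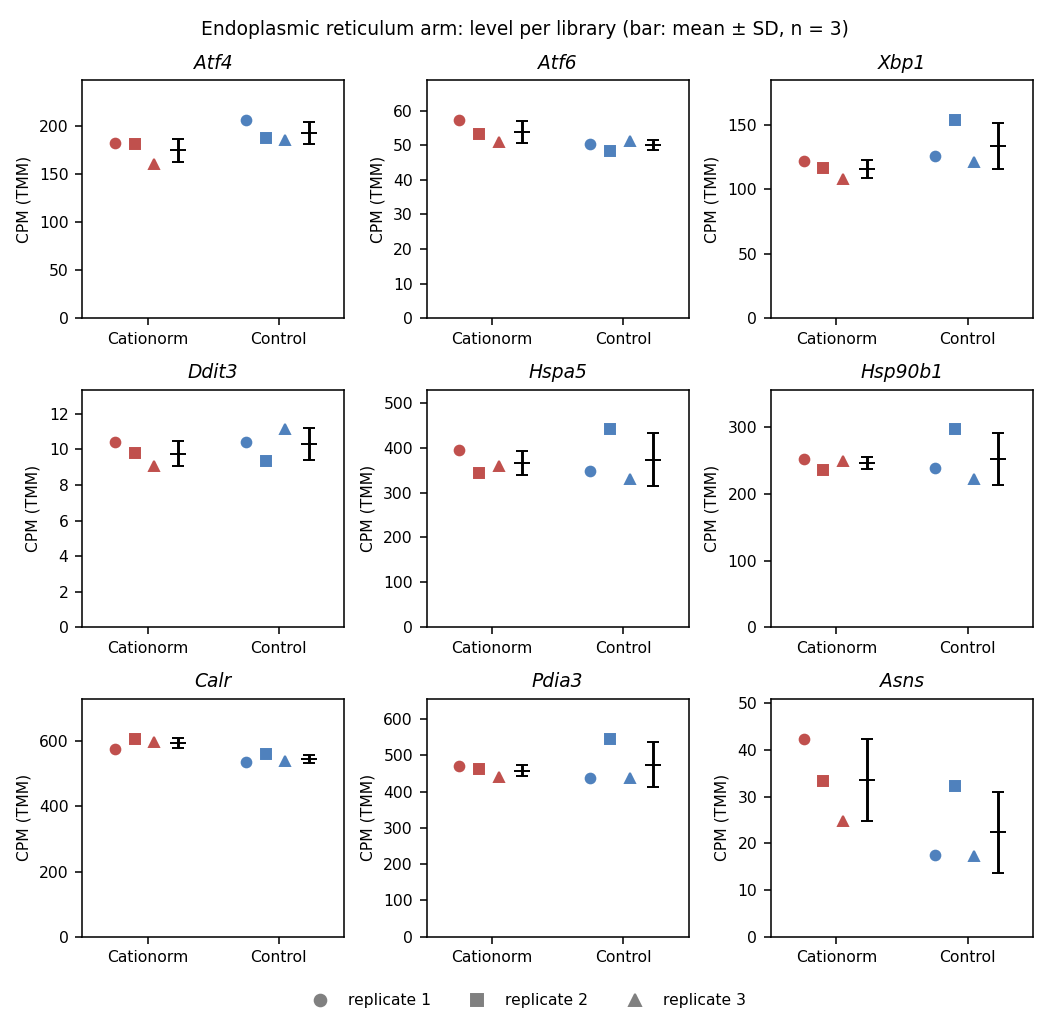
CPM of 9 endoplasmic reticulum genes (vertical axes, each from 0) in the Cationorm libraries (red, left) and the Control libraries (blue, right), with marker shape for the replicate number and a bar for the mean ± SD (n = 3). In Xbp1, Hspa5, Hsp90b1 and Pdia3 the square of Control 2 stands above the other Control libraries, while in Calr all Cationorm libraries lie above all Control libraries.

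Variation within Control was larger than the difference between groups for much of this arm. Control 2 held the highest value in 12 of 21 genes of the arm (57.1%), against 22.9% of all genes tested, and the lowest in 2. The pattern was noticed in these values and is given as a description. It was clearest in Dnajb9, a co-chaperone of BiP and a target of XBP1, with 36.5, 33.7 and 29.3 CPM in Cationorm 1 to 3, against 35.0, 55.8 and 30.9 CPM in Control 1 to 3. Control 2 alone stood apart, at 0.75 above the mean of the other 5 libraries on the log2 scale. Sdf2l1, a small partner of BiP complexes, had 8.59, 8.75 and 8.26 CPM in Cationorm 1 to 3, against 10.05, 13.0 and 7.71 CPM in Control 1 to 3. Its excess in Control 2 was 0.58. The excess was 0.39 for Chac1, 0.37 for Xbp1, 0.36 for Creld2, 0.31 for Hspa5, 0.31 for Hsp90b1 and 0.30 for Manf. For Pdia3, Asns and Hyou1 the excess was 0.28, 0.25 and 0.24. It was absent from Calr (-0.03), Dnajc3 (-0.09), Ddit3 (-0.12), Atf6 (-0.12) and Trib3 (-0.17). The median was 0.24 over the arm, 0.07 over the cytosolic arm and -0.00014 over all genes tested. High levels in Control 2 also occurred outside the compartment. Of the 15 cytosolic members 9 had an excess above 0 (60%, against 49.9% of all genes tested). The largest were those of Dnaja1 (0.44), Hspa4l (0.43), Hspe1 (0.42) and Hsp90aa1 (0.33). Control 2 was highest in 6 of 15 cytosolic members, in 20 of 49 genes of the wider heat shock list (40.8%) and in 17 of 38 of the wider endoplasmic reticulum list (44.7%). The median excess was 0.063 over that last list. Without Control 2 the sign of the fold change turned positive for Hspa5 (0.090), Hsp90b1 (0.075), Pdia3 (0.044), Creld2 (0.070) and Manf (0.039). The leukocyte list, with 6 of 8 genes past the filter, held 0.00833 to 0.00939% of counts in Cationorm and 0.00670 to 0.0116% in Control, highest in Control 2. Its genes were split, with Lyz2, Ptprc and Adgre1 highest in Control 2 and Cd68, Cd14 and Csf1r highest in Cationorm 1. Most counts of the plasma cell list came from Prdm1, which other cells also express, at 64.8 to 76.4 CPM in Cationorm and 56.6 to 65.3 CPM in Control. Jchain, the joining chain of secreted antibodies, had 0.856, 0.451 and 2.55 CPM in Cationorm 1 to 3, against 3.12, 3.63 and 1.76 CPM in Control 1 to 3, and was highest in Control 2. Ighm, Derl3 and Prdm1 were not, and Mzb1, Igha, Igkc and Tnfrsf17 did not pass the filter. The whole plasma cell list held 0.00709 to 0.00780% of counts in Cationorm. In Control 1 to 3 it held 0.00631, 0.00707 and 0.00724%, so it was not highest in Control 2. The skeletal muscle list was low in Control 2, at 0.0193% of counts, against 0.104% in Control 1 and 0.185% in Control 3. Krt14 had 1104, 696 and 1168 CPM in Cationorm 1 to 3, against 745, 1789 and 673 CPM in Control 1 to 3. Within the corneal epithelial list Krt14, Krt5 and Pax6 were highest in Control 2, and the other markers were not. The part of these lists and genes in the result was not tested.

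**Figure D3:**
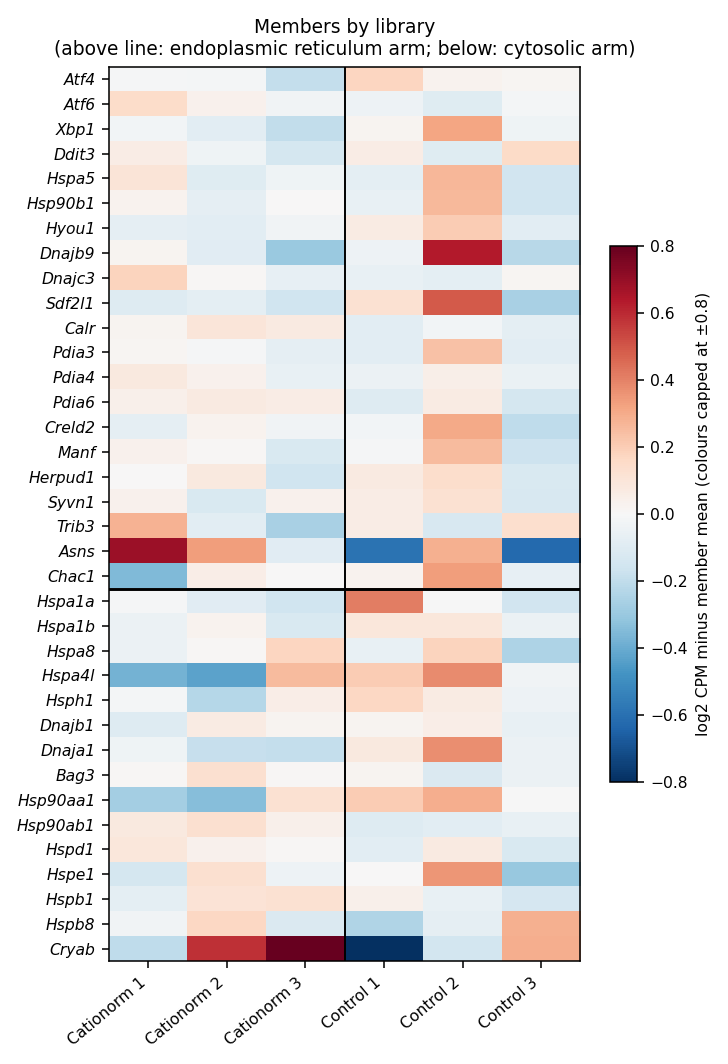
Log2 CPM of each member minus its own mean over the 6 libraries (colour, capped at ±0.8), with Cationorm libraries on the left and Control libraries on the right and the endoplasmic reticulum arm above the line. The Control 2 column is red for most endoplasmic reticulum chaperones, with the strongest value in Dnajb9, and the Cryab row spans the widest range.

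Promoter letters are shown because many genes of the arm had their highest level in the same library. The RefSeq table of GRCm38.p6 held a window for 29 of the 36 members, 18 of the endoplasmic reticulum arm and 11 of the cytosolic arm. Atf6, Hyou1, Manf, Hspa8, Hsp90aa1, Hsp90ab1 and Cryab had none. The 250 bases upstream of each start were searched on both strands for 3 patterns. The endoplasmic reticulum stress element, the site of ATF6 with NF-Y, was searched as CCAAT and CCACG separated by 9 bases of any kind. It was found in 7 of 18 genes of the endoplasmic reticulum arm and 0 of 11 of the cytosolic arm, against 0.130% of all 27025 genes with a window, whose base composition was not matched. The members were listed as genes of these responses, so the shares for the 3 patterns are descriptions and not tests. Each match is shown with the element in capitals, on the strand of the gene and with GRCm38.p6 coordinates. A match that begins with CGTGG lies on the reverse strand.
Hspa5 (chr2:34772020-34772049, plus strand): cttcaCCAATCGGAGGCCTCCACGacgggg
Hsp90b1, far match (chr10:86705632-86705661, minus strand): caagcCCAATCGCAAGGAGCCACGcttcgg
Hsp90b1, near match (chr10:86705527-86705556, minus strand): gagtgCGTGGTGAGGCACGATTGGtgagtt
Dnajc3 (chr14:118937822-118937851, plus strand): cacaaCCAATCAGCGCCAACCACGacccgg
Calr (chr8:84847069-84847098, minus strand): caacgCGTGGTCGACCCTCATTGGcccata
Pdia6 (chr12:17266486-17266515, plus strand): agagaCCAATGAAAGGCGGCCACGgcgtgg
Creld2 (chr15:88819515-88819544, plus strand): cttctCGTGGCGAGCCTCAATTGGtccaca
Syvn1 (chr19:6046527-6046556, plus strand): cgcaaCCAATCGGCGGTAGCCACGggaaca

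The excess in Control 2 was above 0 in 5 of the 7 genes with the element and in 9 of the 11 without an exact match. The median log2 excess in Control 2 was 0.14 over the 7 genes with the element and 0.25 over the 11 genes of the arm with a window and no exact match. Genes with the element included Creld2 and Hspa5, which were high in Control 2, and Calr and Dnajc3, which were not. The match is a description of the letters and not of binding.

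In the amino acid branch, Asns had the widest spread among libraries of this arm, with an SD of 35.5% of the mean. Chac1 (15.2%) and Trib3 (13.6%) varied less than Dnajb9 (26.1%). Asns, asparagine synthetase and a target of ATF4, had 42.5, 33.4 and 24.9 CPM in Cationorm 1 to 3, against 17.6, 32.3 and 17.2 CPM in Control 1 to 3. Control 2 lay within the Cationorm range and the other 2 Control libraries lay below it. The log2 fold change was 0.59 ± 0.29 (95% interval -0.09 to 1.27, edgeR adjusted p = 0.550), and it was 0.93 without Control 2 and 0.38 without Cationorm 1. Chac1, a glutathione-degrading enzyme induced through ATF4, had a log2 fold change of -0.20 ± 0.14. Its means were 56.2 ± 8.23 CPM in Cationorm and 64.4 ± 9.58 CPM in Control (SD, n = 3 each). Trib3, a pseudokinase induced by ATF4 and CHOP, was low at 4.24 ± 0.830 CPM in Cationorm and 4.33 ± 0.397 CPM in Control (log2 fold change -0.03 ± 0.20).

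The core of the composite site of C/EBP and ATF factors, searched as TGATGNAA on both strands, was found upstream of 3 of the 18 genes, against 3.91% of all genes with a window. The matches are shown because Asns and Chac1 differed in sign while both hold the pattern. None of the 3 overlaps a stress element match.
Asns (chr6:7693214-7693243, minus strand): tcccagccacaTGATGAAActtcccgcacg
Chac1 (chr2:119351038-119351067, plus strand): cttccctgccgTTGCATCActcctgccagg
Herpud1 (chr8:94386306-94386335, plus strand): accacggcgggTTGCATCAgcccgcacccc

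Other genes of the amino acid and integrated stress branch were read from a second list of 29, of which 27 were tested. No gene of it was called, 19 had a log2 fold change above 0 (70.4%, against 51.2% of all genes) and the median was 0.11. The groups did not overlap in 6 (22.2%, where all genes gave 14.8%). The 3 with the smallest p were Slc3a2, Slc7a11 and Nars, none of which passed (edgeR adjusted p = 0.550 each). Slc7a11, the cystine importer, had 9.54, 10.2 and 5.66 CPM in Cationorm 1 to 3, against 2.80, 3.34 and 5.55 CPM in Control 1 to 3. Cationorm 3 lay just above Control 3 and the other libraries were well apart, with a log2 fold change of 1.12 ± 0.33 (SE). The iris pigment list held 0.146, 0.120 and 0.121% of counts in Cationorm 1 to 3 and 0.0508, 0.0433 and 0.108% in Control 1 to 3. Control 3 was the highest Control library in both. The part of iris pigment cells in the Slc7a11 values was not tested. Slc3a2, the heavy chain that pairs with Slc7a11, averaged 143 ± 8.55 CPM in Cationorm and 116 ± 10.1 CPM in Control, with a log2 fold change of 0.30 ± 0.08. Nars, asparaginyl-tRNA synthetase, averaged 167 ± 14.9 CPM in Cationorm and 139 ± 8.42 CPM in Control (0.27 ± 0.08). Cationorm 1 was the highest library in 14 of the 27 genes, against 21.4% of all genes tested.

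The wider endoplasmic reticulum list held 39 genes, of which 38 were tested. No gene of it was called, 19 were above 0 and 19 below, and the median was -0.0034. Groups stood apart in 10 of the 38 (26.3%, where all genes gave 14.8%), 7 of them with higher levels in Cationorm. The 3 with the smallest p were Sil1, an exchange factor of BiP (log2 fold change 0.33 ± 0.10), the membrane-bound factor Creb3l2 (0.21 ± 0.08) and Atf6b, the paralogue of Atf6 (-0.28 ± 0.10). The sensors themselves had log2 fold changes of 0.07 ± 0.07 for Eif2ak3, which encodes PERK, and 0.09 ± 0.10 for Ern1, which encodes IRE1.

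In the cytosolic arm the HSP90 pair had estimates of opposite sign, neither of which passed the test. Hsp90ab1, the constitutive HSP90, had 1357, 1405 and 1322 CPM in Cationorm 1 to 3, against 1197, 1213 and 1235 CPM in Control 1 to 3. Every Cationorm library was above every Control library, with a log2 fold change of 0.16 ± 0.05 (95% interval 0.04 to 0.29, edgeR adjusted p = 0.550). Over the alternatives tried its adjusted p ran from 0.186 with DESeq2 to 0.862. Hsp90aa1, the stress-inducible HSP90, had 301, 287 and 396 CPM in Cationorm 1 to 3, against 418, 444 and 363 CPM in Control 1 to 3. Cationorm 3 was above Control 3, and the other Cationorm libraries were below all Control libraries. The log2 fold change was -0.31 ± 0.14 (edgeR adjusted p = 0.550), and -0.47 without Cationorm 3 (adjusted p = 0.0762).

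The order of Hsp90aa1 among libraries was close to that of the retina list. Cationorm 1 and Cationorm 2 had the lowest retina levels, at 0.263 and 0.208% of counts, and Cationorm 3 had 0.687%. Control 1 to 3 had 0.836, 0.718 and 0.559%. Hspa4l, an HSP110-type exchange factor known to be abundant in testis, followed a like order. It had 29.6, 28.6 and 45.8 CPM in Cationorm 1 to 3, against 44.2, 50.1 and 37.7 CPM in Control 1 to 3. Its log2 fold change was -0.34 ± 0.20, and -0.60 without Cationorm 3 (edgeR adjusted p = 0.0818). All 15 retina genes were detected in every library and had log2 fold changes below 0. The part of retinal RNA in these 2 chaperone values was not tested.

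The inducible HSP70 genes Hspa1a and Hspa1b had lower means in Cationorm, within the spread of the libraries. Hspa1b had 553, 580.2 and 524 CPM in Cationorm 1 to 3, against 607, 608 and 551 CPM in Control 1 to 3. Its groups overlapped, with a log2 fold change of -0.09 ± 0.07. Hspa1a had 85.5, 80.7 and 76.9 CPM in Cationorm 1 to 3, against 114, 85.8 and 77.1 CPM in Control 1 to 3. Control 1 was the highest library and the rest lay close together, with a log2 fold change of -0.19 ± 0.14, or -0.0072 without Control 1. Both genes are near-identical copies, and how the authors' counting split their reads is not stated. Summed, they gave 633 ± 30.4 CPM in Cationorm and 681 ± 47.7 CPM in Control (SD, n = 3 each), a log2 difference of -0.10 (p = 0.3, two-sided exact permutation test, where the smallest p possible is 0.1).

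Hspa8, the constitutive HSP70, had 701, 729.7 and 817 CPM in Cationorm 1 to 3, against 696, 819 and 612 CPM in Control 1 to 3. The Control libraries held both the highest and the lowest value (log2 fold change 0.08 ± 0.12). Dnaja1, an HSP40 co-chaperone of HSP70, had 99.4, 89.4 and 89.0 CPM in Cationorm 1 to 3, against 107, 131 and 98.4 CPM in Control 1 to 3. Cationorm 1 lay just above Control 3, Control 2 stood highest, and the log2 fold change was -0.28 ± 0.11 (edgeR adjusted p = 0.550), or -0.17 without Control 2. In GENCODE M21 exons of Dnaja1 overlap those of Smu1 on the opposite strand. The other HSP70 partners were flat or nearly so. Dnajb1, the HSP40 most induced by heat, averaged 153 ± 9.15 CPM in Cationorm and 153 ± 5.99 CPM in Control, and Hsph1, an HSP110 exchange factor, averaged 37.6 ± 3.71 CPM in Cationorm and 41.0 ± 2.94 CPM in Control. Bag3, which links HSP70 to small heat shock proteins in selective autophagy, averaged 115 ± 5.72 CPM in Cationorm and 108 ± 5.16 CPM in Control (log2 fold change 0.10 ± 0.07).

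**Figure D4:**
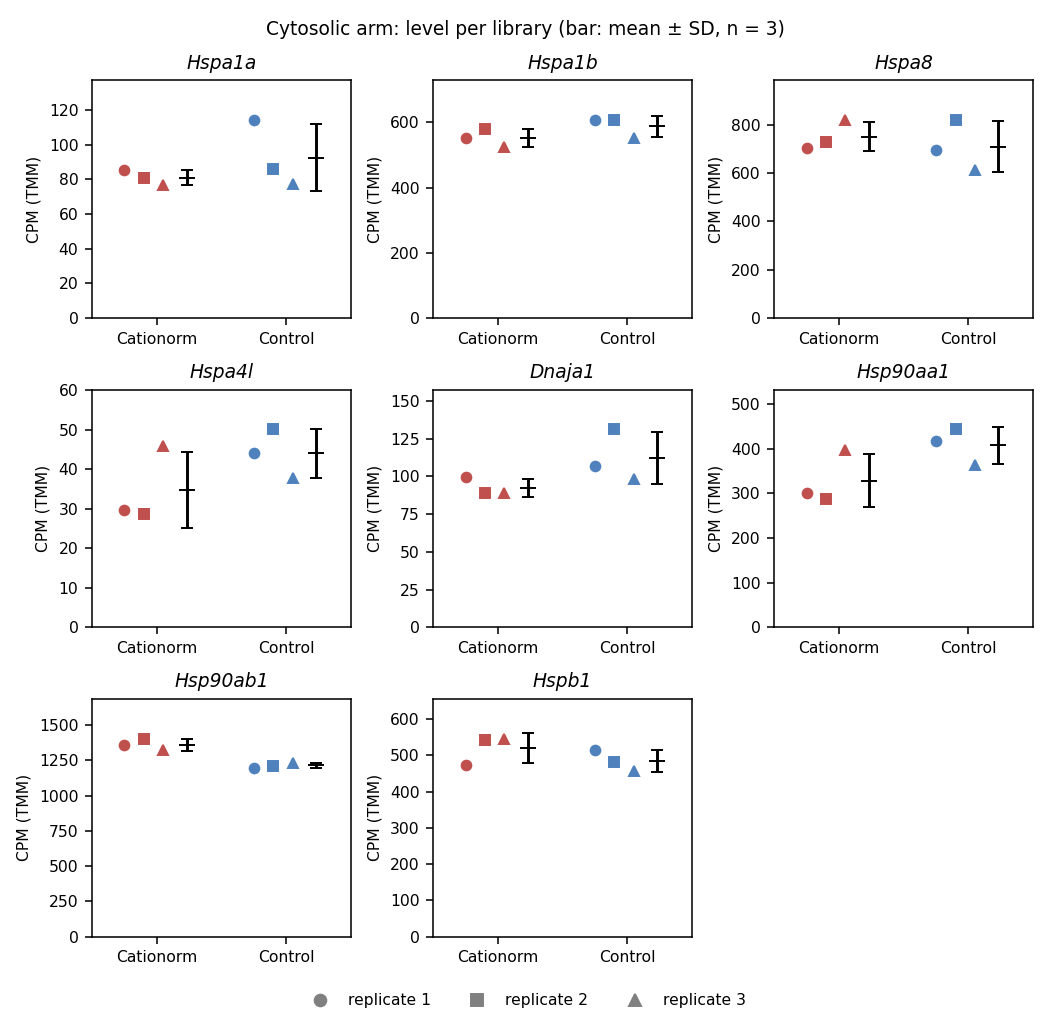
CPM of 8 cytosolic genes (vertical axes, each from 0) in the Cationorm libraries (red, left) and the Control libraries (blue, right), with marker shape for the replicate number and a bar for the mean ± SD (n = 3). Hsp90ab1 is the panel in which the groups separate, at 1322 to 1405 CPM in Cationorm and 1197 to 1235 CPM in Control.

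The mitochondrial chaperonins Hspd1 (HSP60) and Hspe1 (HSP10) are neighbours on opposite strands whose first exons overlap in GENCODE M21. Hspd1 averaged 124 ± 3.51 CPM in Cationorm and 117 ± 8.40 CPM in Control, and Hspe1 averaged 39.3 ± 3.78 CPM in Cationorm and 40.9 ± 9.35 CPM in Control (SD, n = 3 each). Their log2 fold changes were 0.09 ± 0.07 and -0.06 ± 0.16, and Hspe1 ranged from 32.2 CPM in Control 3 to 50.8 CPM in Control 2. The heat shock element, the site of HSF1, was searched as GAA, TTC and GAA with 2 bases of any kind between neighbours, on both strands. It was found upstream of these 2 genes among 11 cytosolic members with a window, against 0.514% of all genes. They share the run, shown in capitals on the strand of Hspe1, where 2 matches overlap.
Hspe1 (chr1:55088053-55088082, plus strand): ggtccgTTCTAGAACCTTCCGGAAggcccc

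Among small heat shock proteins, Hspb1 differed little and Cryab was the most variable of all members. Hspb1, which encodes HSP25 in the mouse, had 474, 541 and 546 CPM in Cationorm 1 to 3, against 515, 481 and 456 CPM in Control 1 to 3. Its groups overlapped (log2 fold change 0.10 ± 0.08). Hspb8, the partner of BAG3, averaged 26.1 ± 2.66 CPM in Cationorm and 26.0 ± 4.93 CPM in Control. Cryab, which encodes αB-crystallin, a chaperone and lens protein, had 260.5, 451 and 532 CPM in Cationorm 1 to 3, against 118, 272 and 368 CPM in Control 1 to 3. It was singled out after its values were seen. The highest library was 4.52 times the lowest, the groups overlapped, and the log2 fold change was 0.72 ± 0.42 (95% interval -0.27 to 1.70, edgeR adjusted p = 0.573), or 0.38 without Control 1 and 1.09 without Control 3.

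The lens list moved with Cryab. It held 0.195, 0.446 and 0.793% of counts in Cationorm 1 to 3 and 0.0108, 0.394 and 0.314% in Control 1 to 3, so Control 1 was lowest and Cationorm 3 highest for both. All 15 lens genes tested had a log2 fold change above 0. Cryaa, the α-crystallin of the lens, had 658, 1261 and 1839 CPM in Cationorm 1 to 3, against 21.3, 891 and 1013 CPM in Control 1 to 3. In Control 1, Cryaa was at 21.3 CPM and Cryab at 118 CPM. The part of lens RNA or of skeletal muscle RNA in the Cryab values was not tested. Exons of Cryab overlap those of Hspb2 on the opposite strand in GENCODE M21, and Hspb2 was counted at no more than 1.45 CPM in any library.

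**Figure D5:**
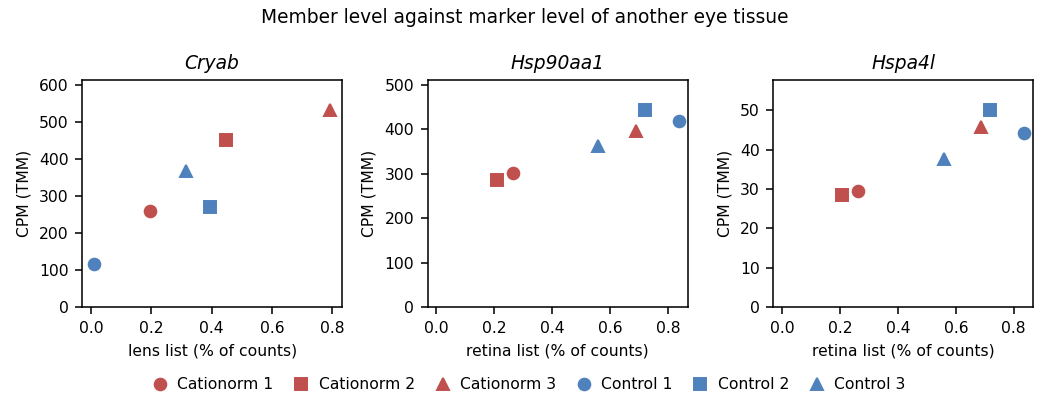
CPM of Cryab against the share of counts in the lens list, and of Hsp90aa1 and Hspa4l against the share in the retina list (both axes linear), with 1 point per library, Cationorm in red and Control in blue. Control 1 is lowest and Cationorm 3 highest in both lens list and Cryab, and Cationorm 1 and Cationorm 2 are lowest in both retina list and the 2 chaperones.

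The wider heat shock list held 50 genes, of which 49 were tested. No gene of it was called, 25 were above 0 and 24 below, with a median of 0.01, and the groups did not overlap in 9 (18.4%, against 14.8% of all genes). Among those with the smallest p were the HSP90 co-chaperones Ptges3 (log2 fold change -0.30 ± 0.10) and Chordc1 (-0.28 ± 0.11), each with an edgeR adjusted p of 0.550. Hsf1 itself averaged 38.2 ± 0.466 CPM in Cationorm and 40.9 ± 1.98 CPM in Control. The immediate early genes that respond to tissue handling held 0.0935 to 0.122% of counts in Cationorm and 0.0868 to 0.113% in Control. Of these 12 genes 9 had a log2 fold change above 0, the median was 0.24 and none was called. In edgeR 3 had an unadjusted p under 0.05 (25%, against 8.73% of all genes), all higher in Cationorm. Egr1 had 71.8, 93.9 and 40.9 CPM in Cationorm 1 to 3, against 8.12, 16.1 and 96.5 CPM in Control 1 to 3. The part of handling in the values of the members was not tested.

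Ranked per length, as CPM per kilobase of the longest coding transcript in GENCODE M21, the cytosolic arm held the highest levels. Hspb1 was first, at 559 ± 43.4 in Cationorm and 520.5 ± 32.1 in Control (SD, n = 3 each). Hsp90ab1 was second, at 540.2 ± 16.7 in Cationorm and 482 ± 7.49 in Control. In Cationorm these neighbours differed by less than the SD of Hspb1, and in Control by slightly more. Below them stood Hspa8, at 313 ± 25.2 in Cationorm and 296 ± 43.6 in Control, Cryab, at 371 ± 125 in Cationorm and 226 ± 113 in Control, and Calr, at 272 ± 7.24 in Cationorm and 249.5 ± 5.78 in Control. The order of these 3 differed between the groups. Calr was the highest endoplasmic reticulum gene and Pdia3 the next, at 165 ± 5.28 in Cationorm and 171 ± 22.6 in Control. Atf4, at 101 ± 7.10 in Cationorm and 112 ± 6.68 in Control, came after Pdia3, and Hspa5, at 99.6 ± 7.06 in Cationorm and 102 ± 16.2 in Control, differed from Atf4 by less than its own SD in both groups. Of all members the lowest was Trib3, at 2.10 ± 0.410 in Cationorm and 2.14 ± 0.196 in Control, below Hspa4l at 3.66 ± 1.02 in Cationorm and 4.64 ± 0.654 in Control. The longest coding transcript had 9479 bases for Hspa4l and 7246 for Atf6, and which transcripts were expressed was not measured. The lengths come from GRCm38, while the submitters' processing notes name GRCm39. For both reasons these ranks are approximate.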

How the data were processed

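Corneal RNA was taken up in TRIzol, and TruSeq libraries were prepared after selection of mRNA, per the labels' protocols. The authors deposited whole-number counts per gene symbol, one column for each library, as the file headers name them. DESeq2, GRCm39 and mm39 are named in the submitters' processing notes, without a role. For the aligner, the counting tool, the annotation and strand, the setting is not given in the sources used here. Titles set the groups. A single batch is tagged, and separate animals are not stated, so p-values measure only how these samples differ from each other, and that spread may be technical.

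Counts were filtered with filterByExpr (18804 of 35673 genes kept), scaled by TMM and tested by quasi-likelihood in R 4.3.3 (edgeR 4.0.16), with Benjamini-Hochberg adjustment at 0.05 over all genes tested. Each SE is the size of the log2 fold change over the square root of its F, and the 95% intervals use moderated degrees of freedom. The procedure was tested on simulated data. The members, arms and lists were chosen with earlier results of these data known. Values per library were given for the 4 most abundant and the 4 with the smallest p in each arm. They were also given for the 4 transcription factors, Hspa1a and Hspa1b. Dnajb9, Sdf2l1 and Cryab were added after their values were seen, as were Slc7a11 and Cryaa. Krt14, Jchain and Egr1 were also given per library, although the rule does not name them. The wider lists name the 3 genes with the smallest p, and Eif2ak3, Ern1 and Hsf1 for their roles. One gene that this rule names is not reported here. Of the listed genes, 4 had no row under the listed symbol and are not analysed here. Promoter letters came from RefSeq (GRCm38.p6); no coordinate of the count table was used. Alternatives were other scalings, filters, tools (DESeq2 1.42.0, limma-voom in limma 3.58.1), a replicate block, robust dispersion and each library left out.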

Additional observations from a re-analysis of the deposited data

How the results depend on the processing

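In 15 alternatives 0 of the 36 members were called, with a smallest adjusted p of 0.0762 for Hsp90aa1 without Cationorm 3, and the count of members called was 0 in both arms throughout. Over all genes DESeq2 called 55, 48 of them higher and 7 lower in Cationorm, and leaving out each library gave 0 to 350 calls (350 without Cationorm 3, 8 without Control 3, 1 without Control 2), against 0 in edgeR with all libraries, where 1641 had an unadjusted p under 0.05. The median log2 fold change of the endoplasmic reticulum arm ran from -0.11 without Control 3 to 0.039 without Control 2, and that of the cytosolic arm from -0.065 to 0.025. The sign of Hspb8 turned with DESeq2 size factors (-0.0014), total library size (-0.030), upper-quartile factors (-0.0022) and DESeq2 (-0.0012). Over the fits with a library left out, the signs of 11 members turned, with ranges of -0.10 to 0.17 for Hspb8, -0.11 to 0.090 for Hspa5, -0.12 to 0.075 for Hsp90b1, -0.11 to 0.044 for Pdia3, -0.17 to 0.070 for Creld2, -0.15 to 0.039 for Manf, -0.13 to 0.0079 for Herpud1, -0.19 to 0.082 for Trib3, -0.058 to 0.040 for Dnajb1, -0.20 to 0.11 for Hspe1 and -0.015 to 0.18 for Hspa8. The cause was not tested. The replicate block changed no call: it called 0 genes, with 879 at an unadjusted p under 0.05 and a median of -0.04 for the endoplasmic reticulum arm. Libraries with the same number did not deviate together (correlations of -0.20, -0.35 and -0.22 for numbers 1 to 3). No library correlated best with the other group's library of its own number. The deviations were taken from the mean of each group of 3, so they offset each other within a group. The check therefore cannot settle whether the numbers pair the samples. The lowest count of a member in any library was 134, and each group had 3 libraries.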
